A study of Mus musculus with 6 samples.

Results

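The microRNAs (miRNAs) miR-451a, miR-486 and miR-144, best known from blood, were followed in small RNA libraries of mouse sperm. Every entry of the miRNA table that named mmu-miR-451a, mmu-miR-486a, mmu-miR-486b or mmu-miR-144, from either arm of the hairpin, was taken, which gave 6 of 778 features: miR-486a-5p and miR-486b-5p as 1 combined entry (called miR-486a/b-5p), miR-486a-3p, miR-486b-3p, miR-451a, miR-144-5p and miR-144-3p. The libraries were made from total RNA of cauda epididymal sperm of C57BL/6 males aged 8 weeks (C57BL/6J in the protocol). The 3 stress samples came from mice with stress-induced depression and the 3 normal samples from normal mice. The labels give neither the kind of stress, nor whether a sample is 1 animal or a pool, nor any step that removes other cells from the sperm, so p-values here measure sample-to-sample spread only, part of which may be technical.

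In red blood cell precursors, the transcription factor GATA1 switches on the gene from which miR-144 and miR-451a are cut, and miR-451a becomes one of the most abundant miRNAs of the red cell. miR-451a is known for its unusual maturation: it is not cut by Dicer but sliced by Argonaute 2, whereas miR-144 takes the usual Dicer route. miR-486 arises inside Ank1, the gene of the red cell membrane skeleton protein ankyrin 1, and is also known from skeletal and heart muscle. In plasma and tissue preparations these miRNAs serve as signs of red blood cell RNA.

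Of the 6 features, 3 have mature sequences in the RefSeq miRNA table (build GRCm38.p6), namely miR-451a and the arms of miR-144, and all 3 were identical to the sequences the authors deposited. They are shown because their seeds, bases 2 to 8 in capitals, set which messenger RNAs a miRNA can pair with, and because the seed of miR-144-3p overlaps those of miR-101a-3p and miR-101b-3p, given in the last 2 lines.
miR-451a: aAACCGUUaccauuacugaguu
miR-144-3p: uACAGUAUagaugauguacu
miR-144-5p: gGAUAUCAucauauacuguaagu
miR-101a-3p: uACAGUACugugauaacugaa
miR-101b-3p: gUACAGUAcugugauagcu
No other of the 778 features had the seed of miR-451a, miR-144-3p, miR-144-5p or miR-486a/b-5p, while the seed of the miR-486 3p arms was also that of miR-6954-5p. The letters ACAGUA begin at base 2 of miR-144-3p and of miR-101a-3p and at base 3 of miR-101b-3p, so these seeds overlap without being the same. The same letters begin at base 1 of miR-101c and of the combined entry of miR-199a-3p and miR-199b-3p.

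The hairpins of miR-144 and miR-451a are neighbours on the plus strand of chromosome 11 of GRCm38.p6, miR-144 at 78073005 to 78073070 and miR-451a at 78073170 to 78073241, with 99 bases between them; GENCODE M21 has no other gene there apart from Mir451b on the opposite strand of the miR-451a hairpin. They are printed with the mature miRNAs in capitals, to show how the positions of the mature strands differ.
Mir451a: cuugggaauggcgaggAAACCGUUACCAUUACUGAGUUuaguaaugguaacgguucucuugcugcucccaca
Mir144: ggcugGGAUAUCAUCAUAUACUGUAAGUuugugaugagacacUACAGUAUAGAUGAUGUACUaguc
In the fold predicted by RNAfold, mature miR-451a (bases 17 to 38 of 72) ran up the 5′ side of the stem and through all 4 bases of the loop (bases 35 to 38). The arms of miR-144, at bases 6 to 28 and 43 to 62 of 66, lay on either side of a 6-base loop and held none of it. miR-486a (Mir486, 23142555 to 23142682) and miR-486b (Mir3107, 23142573 to 23142662) lie on opposite strands of the same stretch of chromosome 8, in an intron of Ank1 and of the antisense gene Gm15816. The 2 copies cannot be told apart by their 5p arms, which stand in 1 entry. miR-486b-3p (20 bases) is miR-486a-3p (21 bases) without its last base, and these entries hold fractions of reads (for example 60.5 and 0.5 in normal replicate 1), so their split is uncertain.

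The libraries held 1010203 to 1522849 miRNA reads in stress and 1083237 to 3067208 in normal samples. Normal replicate 3, the deepest, also had 35.6 miRNA reads per piRNA read, against 10.4 to 19.9 in stress and 14.6 and 14.7 in the other normal samples. Values are given as CPM, counts per 1000000 miRNA reads scaled by TMM, a factor that sets most miRNAs equal between libraries; it was 1.24 to 1.38 in stress and 0.683 to 0.860 in normal samples. Of 25 features in a list of male germ cell miRNAs (miR-34, miR-449 and the X-linked testis cluster), 22 or 23 were detected per stress sample and 20 or 21 per normal sample. Together they took 0.710% to 0.863% of the miRNA reads in stress and 0.676% to 0.883% in normal samples, while their summed CPM, 5159 to 6948 in stress and 7864 to 12921 in normal samples, did not overlap. In CPM, 39.8% of the 236 miRNAs tested below did not overlap either. The features in a list of epithelial miRNAs took 2.93% to 3.23% of the miRNA reads in stress and 1.25% to 1.77% in normal samples.

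The 6 blood-cell features together were a small part of the sperm miRNAs. They took 0.0817%, 0.0465% and 0.0268% of the miRNA reads in stress replicates 1 to 3, against 0.102%, 0.0872% and 0.0341% in normal replicates 1 to 3. Most of this was miR-486: its 3 features made up 86.0%, 67.8% and 91.1% of the group's reads in stress and 90.8%, 93.9% and 84.6% in normal samples. By mean CPM miR-486a/b-5p ranked 54 among 778 features, miR-451a 126 and miR-486a-3p 181, while miR-144-5p, miR-144-3p and miR-486b-3p ranked 342, 501 and 592. In bulk samples such as these, fewer cells of a type and less RNA per cell cannot be told apart.

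**Figure D1:**
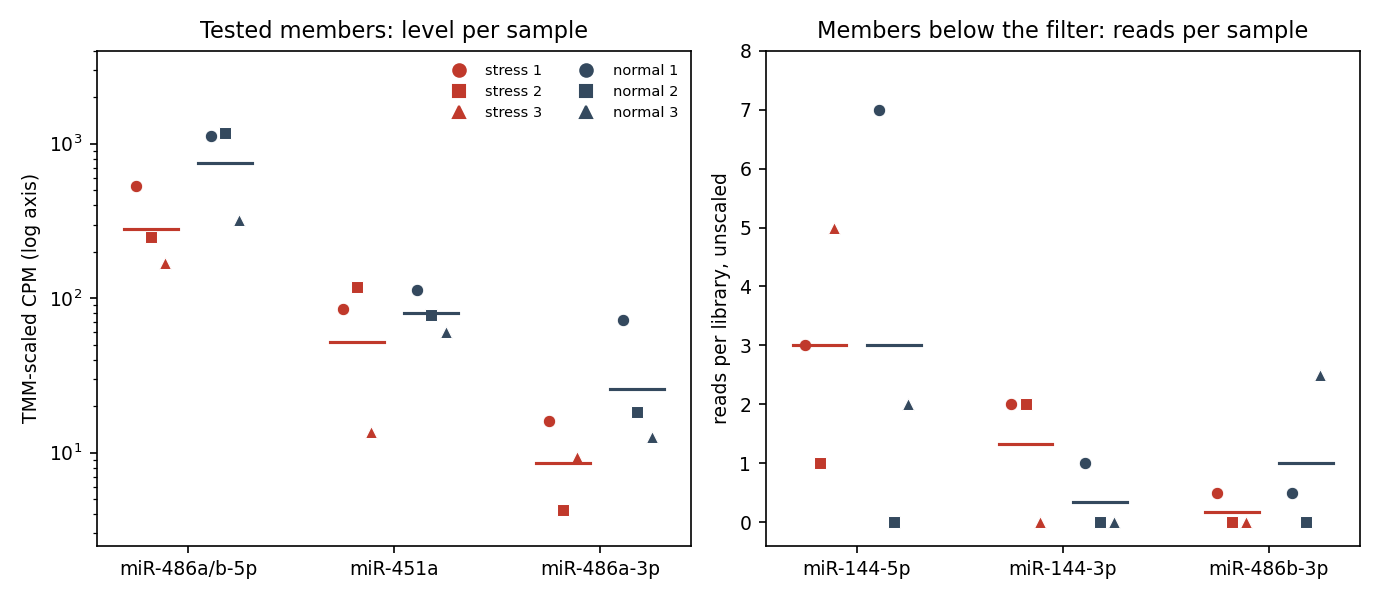
Level of each feature per sample, stress in red to the left of normal in dark blue, with replicates 1 to 3 as circle, square and triangle. The left panel gives TMM-scaled CPM on a log axis with bars at the geometric mean, and the right panel unscaled reads with bars at the arithmetic mean. The groups overlap for all 6 features: normal replicate 3, at 322 CPM of miR-486a/b-5p, lies below stress replicate 1 at 529 CPM.

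miR-486a/b-5p, the most abundant of the group, was measured at 529, 249 and 168 CPM in stress replicates 1 to 3, against 1124, 1179.7 and 322 CPM in normal replicates 1 to 3. Of the stress samples, 2 lay below every normal sample; the groups overlapped only because normal replicate 3 lay below stress replicate 1. The means were 316 ± 189 CPM in stress and 875 ± 480 CPM in normal samples (SD, n = 3 each), and the log2 fold change was −1.47 ± 0.53 (SE). It did not pass in edgeR (adjusted p = 0.084, unadjusted p = 0.018), where the threshold was a Benjamini-Hochberg adjusted p of 0.05 over 236 tested miRNAs. Whether miR-486a/b-5p passed depended on the sample left out. It was at −1.34 without stress replicate 2 (adjusted p = 0.20) and −1.17 without stress replicate 3 (adjusted p = 0.19). It was at −1.28 without normal replicate 1 (adjusted p = 0.21) and −1.17 without normal replicate 2 (adjusted p = 0.25). With the miRNA total as scale it was at −0.67 (adjusted p = 0.27). None of these passed in edgeR. It did pass in edgeR without normal replicate 3 (−1.84, adjusted p = 0.020) and without stress replicate 1 (−2.03, adjusted p = 0.014). Without these samples, 12.9% and 8.1% of all tested miRNAs were called lower. miR-486a/b-5p was also called by DESeq2 (−1.42 ± 0.47, adjusted p = 0.027), where 10.6% of the miRNAs were called lower. In edgeR with no filter on low counts it was called too (−1.45 ± 0.31, adjusted p = 1.1e-04), beside 3.87% of the miRNAs called lower.

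The other strand of the same hairpin had a fold change in the same direction. miR-486a-3p, the passenger strand, had 21.5, 8 and 13 reads in stress replicates 1 to 3, against 60.5, 14 and 33.5 reads in normal replicates 1 to 3, or 15.9, 4.23 and 9.35 CPM against 72.3, 18.4 and 12.7 CPM. Normal replicate 1 stood far above the rest, and stress replicate 1 lay above normal replicate 3. The log2 fold change of −1.76 ± 0.69 did not pass in edgeR (adjusted p = 0.11); it was −0.65 without normal replicate 1 (adjusted p = 0.48), and it passed without stress replicate 1 (−2.30, adjusted p = 0.041), without normal replicate 3 (−2.18, adjusted p = 0.041) and with no filter (−1.76, adjusted p = 0.0060). miR-486b-3p had 0.5, 0 and 0 reads in stress and 0.5, 0 and 2.5 reads in normal samples and was not tested; 0 reads allow up to 2.97 reads per 1000000 miRNA reads in the shallowest sample.

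miR-451a gave no direction that held across samples. It had 115, 225 and 19 reads in stress replicates 1 to 3 and 94, 59 and 159 reads in normal replicates 1 to 3, which came to 85.3, 119 and 13.7 CPM against 112, 77.6 and 60.3 CPM. Stress replicates 2 and 3 held the highest and the lowest values of all 6 samples. The means were 72.6 ± 53.8 CPM in stress and 83.4 ± 26.5 CPM in normal samples (SD, n = 3 each), with a log2 fold change of −0.18 ± 0.58 (edgeR, adjusted p = 0.85). Its fold change was at 0.30 without stress replicate 3, at 0.07 without normal replicate 1, at −0.77 without stress replicate 2, at 0.54 when scaled to the miRNA total and at 0.16 when scaled to piRNA reads, and none of these passed in edgeR.

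The spread of miR-451a among stress samples was among the widest in the table. Its highest stress value was 8.70 times its lowest, against 1.86 times among normal samples. The SD of its log2 CPM was 1.61 in stress samples, where the median of the 236 tested miRNAs was 0.23 and only 3 features, miR-451a included, had an SD at least as large. In normal samples it was 0.44, the same as the median of 0.44. Its share was 18.8 reads per 1000000 miRNA reads in stress replicate 3 (95% Wilson interval 12.0 to 29.4) and 148 reads per 1000000 miRNA reads in stress replicate 2 (130 to 168), so the intervals did not overlap; PCR copies are not independent, so intervals and limits cover counting error only. miR-486a/b-5p varied widely in both groups, with an SD of 0.84 in stress and 1.06 in normal samples.

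miR-144, which shares its gene with miR-451a, was barely detected. miR-144-5p had 3, 1 and 5 reads in stress replicates 1 to 3 and 7, 0 and 2 reads in normal replicates 1 to 3, and miR-144-3p had 2, 2 and 0 reads against 1, 0 and 0. Both arms were below the filter, and no difference was detectable at this depth; normal replicate 2 had no read of either arm, which allows up to 2.70 reads per 1000000 miRNA reads for each. Over all samples the 5p arm had 18 reads and the 3p arm 5, against 671 reads of miR-451a. miR-451a had 23, 75 and 3.8 reads per read of miR-144 in stress replicates 1 to 3, and 11.8 and 79.5 in normal replicates 1 and 3. Stress replicate 3, lowest in miR-451a, was not low in miR-144, with 5 reads as in stress replicate 1. miR-101a-3p and miR-101b-3p, whose seeds overlap with that of miR-144-3p, averaged 400.2 and 140.1 CPM in stress and 333 and 94.0 CPM in normal samples, and neither passed in edgeR (log2 fold change 0.27 ± 0.34 and 0.56 ± 0.37, adjusted p = 0.61 and 0.30).

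Over the whole table, 0 of the 3 tested features passed in edgeR, where 12.7% of the 236 tested miRNAs did (10.2% lower and 2.54% higher in stress, 24 and 6 miRNAs, whereas scaling to the miRNA total gave 10 lower and 96 higher). Of the 3, 2 had an unadjusted p under 0.05, as had 32.2% of all tested miRNAs, and DESeq2 called 1 of them lower, one of 28 of its 263 miRNAs with an adjusted p. The groups overlapped for all 3 in CPM, whereas 39.8% of tested miRNAs did not overlap. All 3 log2 fold changes were negative (median −1.47), beside 49.6% of all tested miRNAs (median 0.00). The 2 features of miR-486 were the 15th and 11th lowest of the 236 fold changes, and miR-451a was the 101st.

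**Figure D2:**
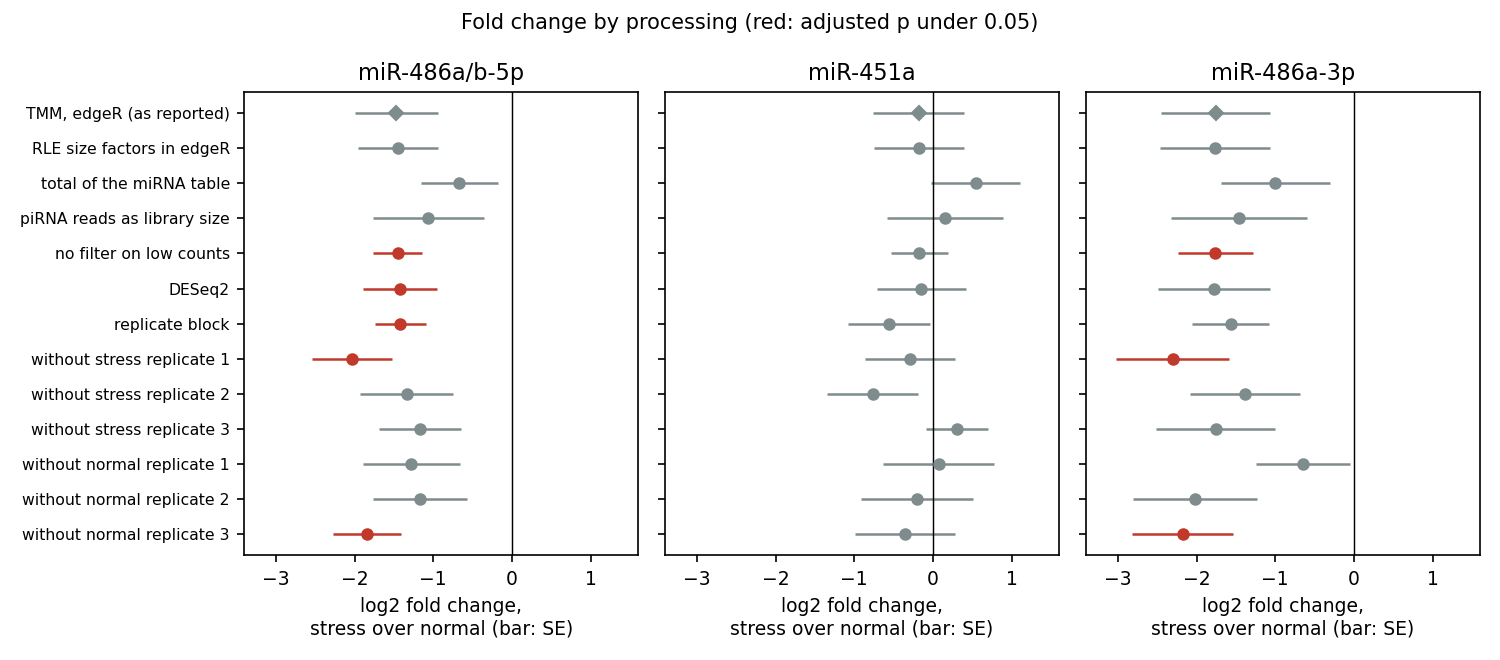
Log2 fold change of the 3 tested features, stress over normal, under each processing, with bars at 1 SE and red for an adjusted p under 0.05. miR-486a/b-5p and miR-486a-3p lie left of 0 throughout, at −2.03 to −0.67 and −2.30 to −0.65, whereas miR-451a spans 0, from −0.77 to 0.54.

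As a share of all miRNA reads, a scale that sets the miRNA total equal, the difference in miR-486a/b-5p was smaller. It made up 682, 310 and 232 reads per 1000000 miRNA reads in stress replicates 1 to 3, against 868, 806 and 276 in normal replicates 1 to 3, with means of 408 ± 240 and 650.1 ± 325 (SD, n = 3 each; exact permutation p = 0.3, two-sided, where 0.1 is the smallest p that 3 against 3 allows). The share of miR-451a averaged 92.2 ± 66.3 in stress and 63.9 ± 19.8 in normal samples (exact permutation p = 0.6, n = 3 each). The groups overlapped in both shares, whereas 62.3% of the tested miRNAs did not overlap by this measure. Scaling to the miRNA total moves the median of all tested miRNAs to 0.76 on the log2 scale. Relative to that median, miR-486a/b-5p was at −1.43 and miR-451a at −0.21. With let-7 and miR-148a left out of the total, the log2 ratio of the mean shares of miR-486a/b-5p was −1.25, against −0.67 with them.

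Against the piRNA reads of the same sample, which come from the germ line, the groups did separate for miR-486a/b-5p. miR-486a/b-5p was at 7065, 6181 and 3221 reads per 1000000 piRNA reads in stress replicates 1 to 3, against 12773, 11772 and 9838 in normal replicates 1 to 3. Every stress sample lay below every normal sample, normal replicate 3 included, and the stress mean was 0.479 times the normal mean (exact permutation p = 0.1, n = 3 each, the smallest possible). Normal replicate 3 had 35.6 miRNA reads per piRNA read, against 10.4 to 19.9 in the other samples, so all its miRNAs stand higher on this scale. By share of the miRNA reads, its miR-486a/b-5p was at 276 per 1000000, below 682 and 310 in stress replicates 1 and 2. Per piRNA read, 11.4% of the tested miRNAs did not overlap, and 7.2% of the tested miRNAs did not overlap and were lower in stress. In edgeR with piRNA reads as library size the log2 fold change was −1.06 ± 0.71 (adjusted p = 0.92). miR-451a overlapped, with 1140, 2946 and 262 reads per 1000000 piRNA reads in stress against 1277, 774 and 1845 in normal samples (exact permutation p = 0.9, n = 3 each).

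**Figure D3:**
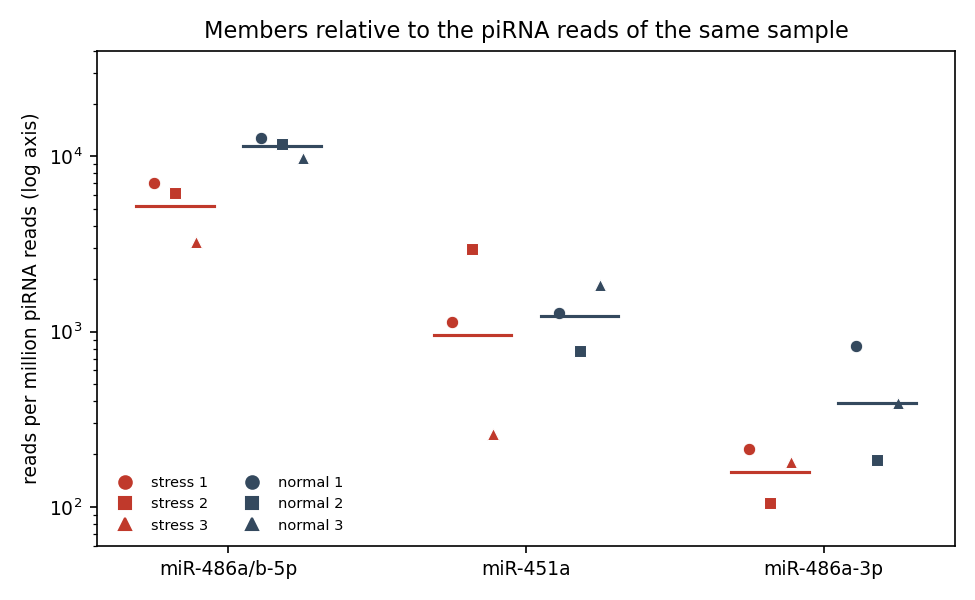
Reads per 1000000 piRNA reads of the same sample on a log axis, stress in red to the left of normal in dark blue, replicates 1 to 3 as circle, square and triangle, bars at the geometric mean. For miR-486a/b-5p the stress samples, at 3221 to 7065, lie below the normal samples, at 9838 to 12773; miR-451a and miR-486a-3p overlap.

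Ratios within a library need no scaling at all. There were 6.20, 2.10 and 12.3 reads of miR-486a/b-5p per read of miR-451a in stress replicates 1 to 3 and 10, 15.2 and 5.33 in normal replicates 1 to 3. These overlapped (mean log2 ratio 2.44 ± 1.29 in stress and 3.22 ± 0.76 in normal samples, exact permutation p = 0.5, n = 3 each), and stress replicate 2 had the lowest ratio. The mean difference of −0.78 on the log2 scale became −0.094 without stress replicate 2 and −1.37 without stress replicate 3.

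miR-23a-3p is the miRNA against which miR-451a is usually set to gauge red cell RNA in plasma. There were 0.415, 0.566 and 0.0704 reads of miR-451a per read of miR-23a-3p in stress replicates 1 to 3, against 4.37, 0.733 and 0.591 in normal replicates 1 to 3. For miR-486a/b-5p the ratios were 2.57, 1.19 and 0.867 in stress against 43.7, 11.1 and 3.15 in normal samples. Neither pair of groups overlapped, with mean differences of −2.28 and −3.06 on the log2 scale (exact permutation p = 0.1 each, n = 3 per group; 0.25 each when adjusted over the 5 ratios tested). The CPM of miR-23a-3p itself did not overlap between groups, being higher in stress. How many of all tested miRNAs would separate when set against it was not counted. Whether the separation is particular to these 2 miRNAs is therefore not known. With the sum of miR-23a-3p and miR-23b-3p as comparator the groups overlapped for both, at −1.69 for miR-451a and −2.47 for miR-486a/b-5p (exact permutation p = 0.3 and 0.2, n = 3 per group). The difference for miR-451a was −1.35 without stress replicate 3, −1.37 without normal replicate 1 and −2.86 without stress replicate 2, and that for miR-486a/b-5p was −2.10 without normal replicate 1 and −4.00 without normal replicate 3. The comparator itself differed: miR-23a-3p was at 205, 210.1 and 194 CPM in stress against 25.7, 106 and 102 CPM in normal samples (log2 fold change 1.37 ± 0.43, edgeR adjusted p = 0.051). miR-24-3p, from the same cluster, differed less, at 551 ± 22.1 CPM in stress and 467 ± 87.2 CPM in normal samples (0.24 ± 0.26, edgeR adjusted p = 0.56). Set against miR-24-3p, both miRNAs overlapped between groups, with mean differences of −1.68 for miR-486a/b-5p and −0.90 for miR-451a (exact permutation p = 0.2 and 0.6, n = 3 per group; 0.33 and 0.6 adjusted over the 5 ratios).

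**Figure D4:**
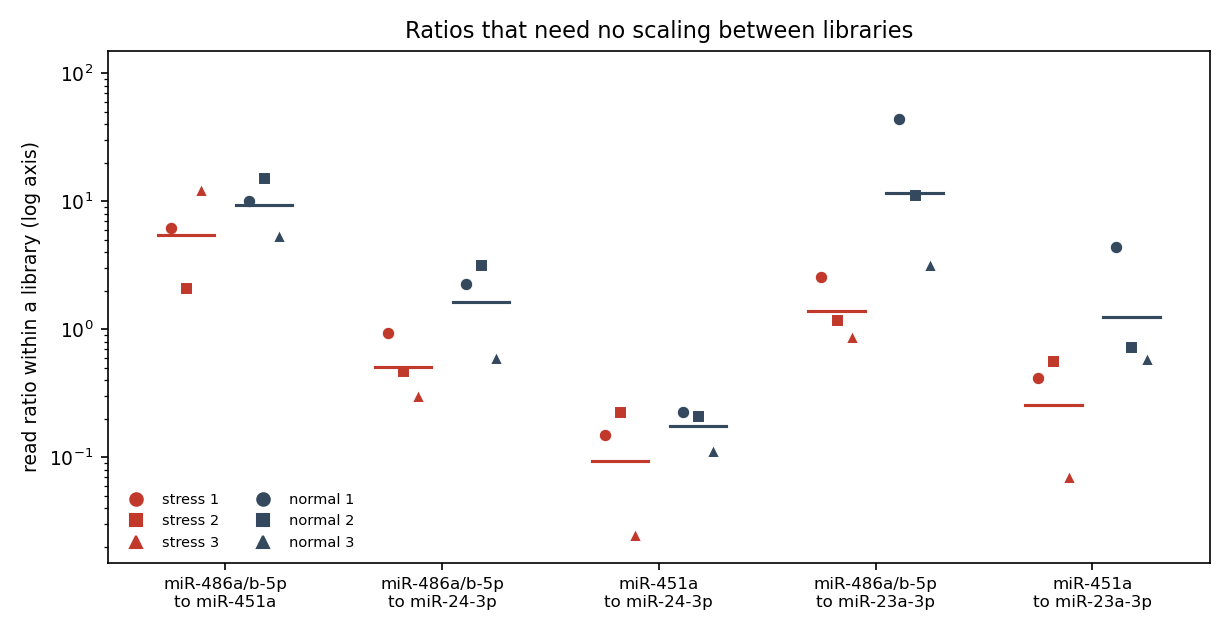
Read ratios within each library on a log axis, stress in red to the left of normal in dark blue, replicates 1 to 3 as circle, square and triangle, bars at the geometric mean. The groups separate only for the ratios to miR-23a-3p (0.867 to 2.57 in stress and 3.15 to 43.7 in normal samples for miR-486a/b-5p), and overlap for the ratios to miR-24-3p and for miR-486a/b-5p to miR-451a. The CPM of miR-23a-3p itself did not overlap between groups.

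Other miRNAs that red cells and their precursors carry in quantity showed no call in the main fit, though some lay near the threshold. Of 24 features of such miRNAs (among them miR-16, miR-15b, miR-25, miR-92a, miR-93, miR-101a, miR-221 and miR-222), 14 were tested and 0 passed in edgeR, with 6 negative and 8 positive fold changes and a median log2 fold change of 0.23. With the miRNA total as scale 8 were called higher and 0 lower, and with RLE factors 3 higher and 1 lower. Over all 236 tested miRNAs 6 were called higher and 24 lower in the main fit. These were 96 and 10 with the miRNA total, and 16 and 28 with RLE factors. DESeq2, no filter and leaving out normal replicate 3 each called 2 of the list higher and 1 lower. Over all miRNAs these settings called 12, 19 and 22 higher and 28, 30 and 33 lower. Without stress replicate 2, edgeR called 1 of the list higher and 0 lower, beside 8 and 14 over all miRNAs. The 2 most abundant, miR-25-3p and miR-92a-3p, were at −0.23 ± 0.28 and −0.07 ± 0.27 (edgeR adjusted p = 0.60 and 0.86). Many of these miRNAs are expressed widely outside blood. The list took 0.573% to 0.637% of the miRNA reads in stress and 0.315% to 0.447% in normal samples, without overlap, while its summed CPM, 4444 to 4976 in stress and 4084 to 6317 in normal samples, overlapped. By share, 62.3% of single tested miRNAs did not overlap either.

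Markers of other cells were set beside the blood-cell features. The counts below are to be read beside those over all miRNAs. Of the 236 tested, 24 were called lower (10.2%) and 6 higher (2.54%). With the miRNA total as scale these were 10 lower and 96 higher, and with piRNA reads 3 lower and 3 higher of 251 tested. Of 8 tested leukocyte and platelet features 1 fell, miR-342-5p (−1.76 ± 0.41, edgeR adjusted p = 0.018; 0.053 without stress replicate 3 and 0.051 without normal replicate 1), 0 rose and 7 did not pass (median 0.41). Of the 8 fold changes 3 were negative and 5 positive. With the miRNA total as scale 0 fell and 5 rose, and with piRNA reads 0 fell and 0 rose, miR-342-5p being at an adjusted p of 0.065 and 0.67 in edgeR. DESeq2 called 2 of the list higher, and edgeR called 3 with no filter and 3 without normal replicate 3. Over all miRNAs these settings called 12, 19 and 22 higher. The 2 most abundant of the list, miR-146b-5p and miR-146a-5p, were at 0.01 ± 0.21 and 0.87 ± 0.29 (edgeR adjusted p = 0.97 and 0.063). The list took 1.29% to 1.64% of the miRNA reads in stress and 0.652% to 0.918% in normal samples, without overlap, while its summed CPM overlapped, at 10417 to 11928 in stress and 9535 to 11883 in normal samples. By share, 62.3% of single tested miRNAs did not overlap either. Most of the sum was miR-146b-5p, which averaged 9735 CPM in stress and 9660 CPM in normal samples. Of its 12 features, 5 had 0 reads in at least 1 sample: miR-155-5p and miR-150-3p in normal replicates 1 and 2, miR-223-3p and miR-142a-5p in normal replicate 1, and miR-146b-3p in stress replicates 1 and 2 and normal replicates 1 and 2. Of 8 endothelial, smooth muscle and stromal features 0 fell and 2 passed as higher, miR-145a-5p at 1.96 ± 0.35 (edgeR adjusted p = 0.0072), and the combined miR-199a/b-3p at 1.29 ± 0.30 (adjusted p = 0.017; 0.053 without stress replicate 3). With the miRNA total as scale 6 were called higher, and with piRNA reads 0, miR-145a-5p being at an adjusted p of 0.17 and miR-199a/b-3p at 0.77 in edgeR. Their list had a median of 0.52, and miR-143-3p, its most abundant, was at 0.49 ± 0.28 (edgeR adjusted p = 0.24). Of 8 epithelial features 0 passed (median 0.41; 6 called higher with the miRNA total as scale), miR-200b-3p and miR-200c-3p, the most abundant, being at 0.07 ± 0.20 and 0.38 ± 0.22 (edgeR adjusted p = 0.85 and 0.25). Of 18 male germ cell features 3 fell, 0 rose and 15 did not pass (median −0.24). With the miRNA total as scale 0 fell and 6 rose (median 0.51), and with piRNA reads 0 fell and 0 rose. The 3 that fell, miR-871-3p, miR-743b-5p and miR-465a/b/c-3p, were at −1.40 ± 0.31, −1.34 ± 0.36 and −1.31 ± 0.38 (edgeR adjusted p = 0.016, 0.032 and 0.044). The number that fell was 0 without stress replicate 3, 1 without stress replicate 2, normal replicate 1 or normal replicate 2, 2 without stress replicate 1 and 4 without normal replicate 3. The 2 most abundant of the list, miR-881-3p and miR-465c-5p, were at −0.91 ± 0.29 and −0.29 ± 0.28 (edgeR adjusted p = 0.051 and 0.51).

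The liver and muscle markers varied most between single samples. miR-122-5p, the main miRNA of liver, which also circulates in blood, was at 110, 28.0 and 33.8 CPM in stress against 343, 2416 and 124 CPM in normal samples (−4.07 ± 0.99, edgeR adjusted p = 0.022; −2.01 and adjusted p = 0.094 without normal replicate 2). miR-1a-3p, a muscle miRNA, was at 3493, 286 and 261 CPM in stress against 152, 491 and 128 CPM in normal samples and did not pass (2.40 ± 0.93, edgeR adjusted p = 0.11). Stress replicate 1 had the highest miR-1a-3p of all samples, and normal replicate 2 the highest miR-122-5p. miR-486a/b-5p was highest in normal replicate 2 in CPM. In reads, in share and per piRNA read miR-486a/b-5p was highest in normal replicate 1, where miR-1a-3p was at 152 CPM. In CPM, miR-1a-3p and miR-486a/b-5p ordered the samples within each group alike. From highest to lowest these were replicates 1, 2 and 3 in stress and 2, 1 and 3 in normal samples. Their fold changes between groups had opposite signs. Of the 3 tested liver and muscle features 1 fell and 0 rose (median −2.67, but 0.12 over 4 tested without normal replicate 2), beside 10.2% of all tested miRNAs called lower. The whole list, 6 features of which 4 or 5 were detected per sample, summed to 0.0405% to 0.476% of the miRNA reads in stress and 0.0229% to 0.221% in normal samples. The male germ cell list had a lower summed CPM in every stress sample than in any normal sample, while its share of the miRNA reads overlapped. Among stress samples its sum was highest in replicate 2, at 6948 CPM, and miR-486a/b-5p was highest in replicate 1. Among normal samples both were highest in replicate 2 and lowest in replicate 3 in CPM. The part of RNA from germ cells, liver, muscle or other cells in the miR-486 values was not tested.

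**Figure D5:**
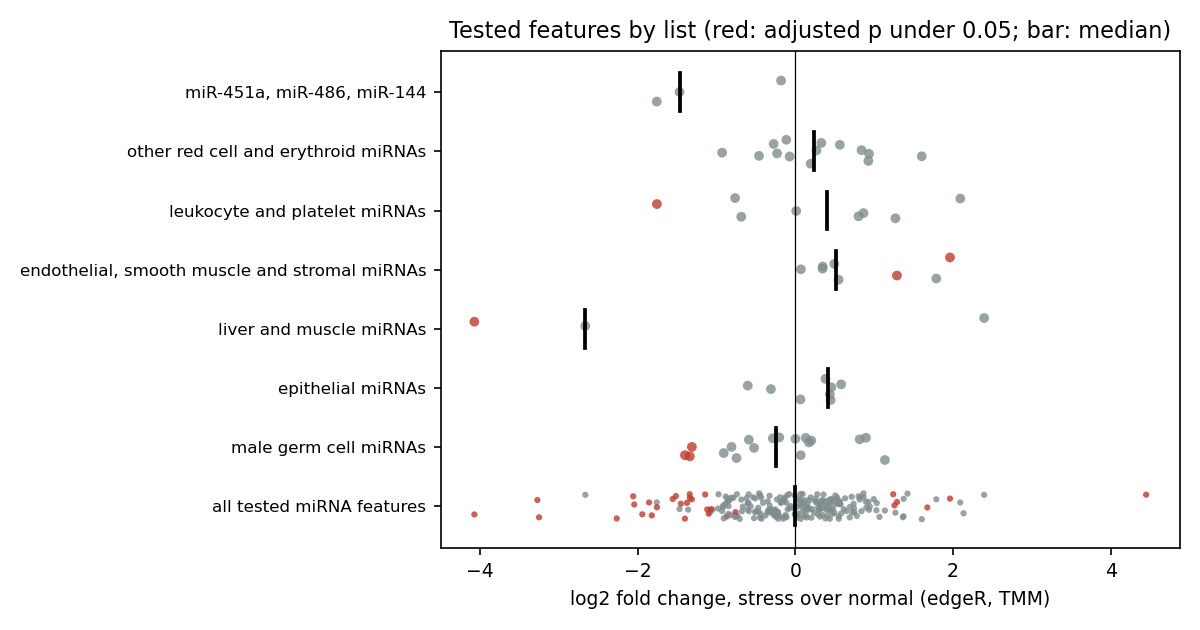
Log2 fold change, stress over normal, of each tested feature by list, with red for an adjusted p under 0.05 in edgeR and a black bar at each list's median. The 3 tested blood-cell features lie at −1.76 to −0.18 with a median of −1.47, against a median of 0.23 in the list of other red cell miRNAs and 0.00 over all 236 tested features.

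The miRNAs whose pattern over the 6 samples lay closest to each feature were found as the root mean square difference between centred log2 CPM values. miR-486a/b-5p was closest to miR-672-5p (0.56), miR-871-3p (0.57) and miR-465a/b/c-3p (0.57), where the median over 233 miRNAs was 1.15; the last 2 belong to the list of male germ cell miRNAs. miR-486a-3p was closest to miR-465a/b/c-3p, miR-342-5p and let-7b-5p (0.50, 0.50 and 0.51, median 1.24). miR-451a was closest to miR-615-3p (0.57), miR-29b-3p (0.69) and miR-24-2-5p (0.77), with a median of 1.11. Among the blood-cell features themselves, miR-486a-3p was the 22nd closest of 235 miRNAs to miR-486a/b-5p, at 0.73, and miR-451a the 63rd, at 0.93. miR-451a and miR-486a-3p lay farther apart, at 1.30, miR-451a being the 138th closest to miR-486a-3p. These distances include the difference between the groups. The miRNAs named as closest to the 2 miR-486 features were all called lower in stress in edgeR, at −2.27 to −1.31. Of all tested miRNAs, 10.2% were called lower. Those named as closest to miR-451a were not called. All of these values share the same 6 libraries and scaling factors.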

How the data were processed

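Small RNA of 6 sperm samples was sequenced. Per the labels' protocols, RNA was taken with TRIzol and libraries were built with an Illumina TruSeq RNA kit; Bowtie is named in the submitters' processing notes. Of the genome build, the annotation, the filters on reads and the counting, nothing is stated in the labels. Values in the deposited miRNA table are expected counts (92.0% of values whole within 0.001, the rest fractions). The deposited piRNA table holds RPM; all values were whole multiples, within 0.001, of 1 step per sample, so piRNA totals of 72652 to 100913 reads were taken from that step. The tsRNA table was not used.

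Expected counts were rounded and tested over the whole table with edgeR 4.0.16 (filterByExpr, minimum count 10; TMM; glmQLFit and glmQLFTest; Benjamini-Hochberg over 236 features, threshold 0.05), with DESeq2 1.42.0 as an alternative. SE is the fold change divided by the square root of F. Shares and ratios used exact permutation tests, two-sided. Wilson intervals used rounded reads, and the limit for 0 reads is 3 reads. Hairpins were folded with RNAfold 2.7.2. The count test was tested on simulated data. Alternatives were scaling, filter, tool, a replicate block and leaving out each sample. Named were all members, in each list the features past the threshold and the 2 most abundant, the comparators miR-23a-3p and miR-24-3p, and the 3 miRNAs closest in pattern to each tested member; miR-101a-3p and miR-101b-3p were added for their sequence and 5 leukocyte features for reads of 0, after their values were seen. Added later, for an adjusted p near the threshold, were miR-15b-5p, miR-93-5p, miR-221-3p and miR-222-3p, and for its sequence miR-101c. Members and lists were chosen with earlier results of these data known.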

Additional observations from a re-analysis of the deposited data

How the results depend on the processing

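miR-486a/b-5p and miR-486a-3p kept a negative fold change under all 12 alternatives, and passed the threshold in 5 and 3 of them. Leaving out 1 sample gave −2.03 to −1.17 and −2.30 to −0.65, and −0.77 to 0.30 for miR-451a, which reversed without stress replicate 3 (0.30), without normal replicate 1 (0.07), with the miRNA total (0.54) and with piRNA reads (0.16). miR-486a/b-5p passed with no filter (−1.45), with DESeq2 (−1.42) and with the replicate block (−1.42, adjusted p = 0.037 in edgeR); miR-486a-3p passed with no filter (−1.76). The members called numbered 2 with no filter, 1 with DESeq2, 1 with the block and 0 to 2 leaving out 1 sample. Over all miRNAs 24 were called lower and 6 higher. These became 28 and 16 with RLE, 10 and 96 with the miRNA total, 3 and 3 with piRNA reads, 30 and 19 with no filter, 28 and 12 with DESeq2, 21 and 7 with the block, and 13 to 33 and 4 to 22 leaving out 1 sample. Titles number the samples alike, but deviations of same-numbered samples correlated at 0.11, −0.21 and 0.12, so the numbers were not taken as pairs. With them as a replicate block, miR-451a was at −0.56 and miR-486a-3p at −1.57 (adjusted p = 0.49 and 0.085 in edgeR), and the calls of miR-122-5p (−3.07, adjusted p = 0.096) and miR-743b-5p (−1.36, adjusted p = 0.059) were lost. Of 49 alternatives for shares and ratios 2 reversed, the miR-451a share relative to miRNAs other than let-7 and miR-148a (−0.042) and the miR-486a-3p share without normal replicate 1 (0.13, with −1.55 as the lowest leaving out 1 sample); exact tests could not pass in any. Counts of calls in the lists stayed within 1.5 times in 101 of 144 cases. Scaling to all 3 tables was not run, since several read depths could be fitted to the tsRNA values. The cause was not tested for any of these changes. Depth limits miR-144 and miR-486b-3p, with at most 7 reads in a sample.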
